A study of Mus musculus with 6 samples.

Results

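Procr-leaning and Cd48-leaning cells were 25 and 25 of the 82 HPC1 cells in 1 single-cell RNA library, out of 497 cells in the 6 libraries of the series. The HPC1 library mixed 2 sorted gates, CD201+CD48- and CD48+, and its column names give only the library and a cell number, so no cell could be traced to its gate. As a stand-in, each cell's deposited Cd48 score was subtracted from its Procr score, and the 25 highest cells (Procr-leaning) were set against the 25 lowest (Cd48-leaning), with 32 cells between them. All cells came from C57BL/6 mice of 8 to 10 weeks. The labels name the tissue as spleen, whereas the series title speaks of bone marrow. PolyA RNA of single cells was copied by a modified Smart-seq2 method and enriched for transcript 3' ends. How many mice were used is not stated in these sources. For comparison, the same rule was applied to the HSC1 library (84 cells, gates CD201+CD48- and CD48+, tissue label spleen) and to the MPP2-containing library (80 cells, gates CD201-CD48- HPC1, MPP2, CD48+ HSC1 and CD48+ HPC1), both from the same strain and age range.

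Haematopoietic stem cells (HSC) renew themselves and give rise to all blood lineages through progenitors of narrowing potential. CD201, the endothelial protein C receptor encoded by Procr, is enriched on the surface of HSC, and CD48, a protein of the SLAM family that binds CD244 and CD2, appears on most progenitors as they leave the stem cell state. HSC divide rarely, whereas progenitors cycle, and a share of HSC carries transcripts of megakaryocytes, the cells that shed platelets.

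All 25 Procr-leaning cells had Procr counts and 9 of them also had Cd48 counts. Of the 25 Cd48-leaning cells 17 had Cd48 counts, 6 of these also had Procr counts, and 8 had neither. A gene without counts in a cell still has a score there, set by the per-cell covariates described under the processing. The 8 cells with neither count were thus placed by covariates and not by counts of either gene. The score difference was 1.38 in the last Procr-leaning cell and 1.23 in the next cell outside the group. At the other end it was -0.165 in the first Cd48-leaning cell and -0.146 in the next cell outside. Both genes are left out of all results. The groups were chosen on measured values of these same cells and come from 1 library, so every difference between them is a description with no test. Amplified reads are not independent molecules, and the exact 95% Poisson and binomial intervals given cover counting error only. A cell's total count ran from 16702 through a median of 111207 to 358187 in Procr-leaning cells, and from 3648 through 67327 to 377535 in Cd48-leaning cells. Levels are counts per 1000000 (CPM) of the summed counts of a group unless a cell is named, and log2 ratios are Procr-leaning over Cd48-leaning with 10 CPM added to both levels.

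The 2 groups differed in the cell numbers of the column names, whose meaning the labels do not give. The highest number among the 25 Procr-leaning cells was 50. The cut was set there, so all 25 lie at or below it by construction. Of the Cd48-leaning cells 6 were numbered 50 or below and 19 above. The 32 cells between them were split 17 and 15. Cd48 counts were found in 3 of the 6 Cd48-leaning cells numbered 50 or below and in 14 of the 19 above. Between the groups they were found in 4 of the 17 and 7 of the 15 cells. Gene levels followed these numbers also among cells that the rule put in neither group. The numbers, any plate or batch they may stand for, and the sorted gate cannot be told apart here. Values for the cells numbered 50 or below alone, 25 against 6 cells, are given beside the results; in them the median log2 ratio over all genes was 0.13, against 0.00 in the full groups.

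Kit, the stem cell factor receptor of stem and progenitor cells, was counted in 24 of 25 Procr-leaning and 24 of 25 Cd48-leaning cells, at 148 and 164 CPM. Mature B cell genes summed to 58.1 CPM in Procr-leaning and 45.6 CPM in Cd48-leaning cells (5 of 10 genes measured), NK cell genes to 3.17 and 0 CPM (2 of 9), and Dntt, the lymphoid progenitor polymerase, had 0 counts in both groups.

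HSC genes were higher in Procr-leaning cells. Of the 30 measured genes of an HSC list, 19 were at least 2-fold higher and 1 was at least 2-fold lower, where 10.0% of 12018 genes were at least 2-fold higher and 8.10% at least 2-fold lower. The list's median log2 ratio was 1.41, against 0.00 over all genes. The shares of 10.0% and 8.10% and the median of 0.00 also apply to the lists below in the same groups. Without the highest cell of each group for each gene, 19 were at least 2-fold higher and 2 lower, where 6.94% and 8.91% of all genes were. The summed level of the 30 genes ran from 3939 through a median of 8736 to 13530 CPM in single Procr-leaning cells, and from 1231 through 3081 to 9804 CPM in Cd48-leaning cells. The ranges overlapped, but 23 of 25 Procr-leaning and 6 of 25 Cd48-leaning cells lay above the median of the library.

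Mecom, a transcription factor that maintains long-term stem cells, stood at 120 CPM (108 to 133) in Procr-leaning and 27.9 CPM (22.3 to 34.5) in Cd48-leaning cells, a log2 ratio of 1.78. The gene spans chr3:29951296-30548008, minus strand (mm10, GENCODE vM21). Mllt3, a chromatin reader of the super elongation complex with a role in stem cell maintenance, had a median of 303 CPM per Procr-leaning cell (range 7.72 to 1397) and of 17.8 CPM per Cd48-leaning cell (0 to 1014), with a ratio of 2.05. Hlf, a PAR bZIP transcription factor of HSC, gave 1.44, at 226 against 77.2 CPM. Several surface genes of the list went the same way as these 3 regulators, whereas the surface gene Slamf1, given below, did not. Ly6a, which encodes the sorting antigen Sca-1, was at 444 against 101 CPM (2.04). Clec1a, a C-type lectin gene, was at 45.4 CPM (38.2 to 53.5) against 2.63 CPM (1.13 to 5.18), a ratio of 2.13. Esam, an adhesion molecule of HSC and endothelium, gave 1.75, and Pdzk1ip1, a small membrane protein gene, 1.38. Sult1a1, a sulfotransferase gene, had the highest ratio but one of the list (2.59), behind Ifitm1. Cdkn1c, which encodes the cell cycle inhibitor p57 of quiescent stem cells, was counted in 9 Procr-leaning and 6 Cd48-leaning cells and gave 1.44.

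Some other members did not differ between the groups by 2-fold. Meis1, a homeobox gene of stem and progenitor cells, was at 244 CPM in both groups. Gata2, a zinc finger regulator of HSC and of megakaryocytes, gave -0.26, and Slamf1, which encodes the HSC antigen CD150, -0.87.

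In the cells numbered 50 or below, the median of the HSC list was 0.29. The 6 Cd48-leaning cells with such numbers had summed levels of 6388 to 9804 CPM, within the range of the Procr-leaning cells, and the 19 with numbers above 50 had 1231 to 4822 CPM. The cells between the groups showed the same split, with a median of 6297 CPM over 17 cells numbered 50 or below and 2266 CPM over 15 cells above. HSC gene levels were thus lower at numbers above 50 among the Cd48-leaning cells and among the cells between the groups. No Procr-leaning cell had such a number. Cd48 counts also went with the number, as given above, and the cause was not tested.

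**Figure D1:**
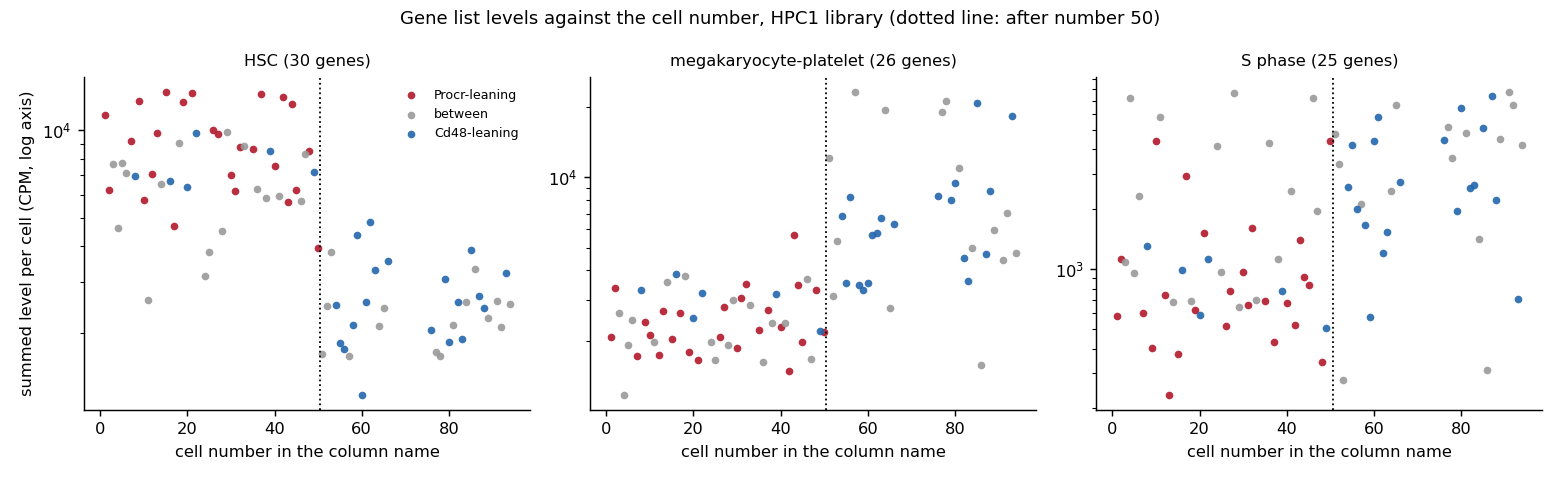
Summed level of 3 gene lists (CPM, log axis) in each of the 82 HPC1 cells against the cell number in the column name, coloured by group; the dotted line follows number 50. Cells above the line have lower HSC levels, at a median of 2565 CPM in 19 Cd48-leaning and 2266 CPM in 15 cells between the groups, than the Procr-leaning cells at 8736 CPM.

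Genes were named by a rule over all 12018 measured genes: at least 2-fold in the same direction with and without the highest cell of each group, and counted in at least 25% of the cells of 1 group after thinning each cell to 10000 counts, which 355 genes met on the higher and 640 on the lower side. One Cd48-leaning cell was too shallow to thin, which left 24. The 12 with the highest ratios were, in order, Cd24a, Il4, Anxa1, Cracr2b, Tcn2, Ifitm1, Nkx2-3, Serpinf1, Rtp4, Ldhb, Npdc1 and Xdh.

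Ifitm1, an interferon-inducible membrane protein gene, ran from 898 through a median of 2986 to 7058 CPM per Procr-leaning cell and from 41.6 through 442 to 3097 CPM per Cd48-leaning cell. Its level was 3296 CPM (3232 to 3360) in Procr-leaning and 461 CPM (437 to 486) in Cd48-leaning cells, a ratio of 2.81; its position is chr7:140967221-140969825, plus strand. Nkx2-3, a homeobox gene, was the most sharply divided of these 12 in cells counted: after thinning it was present in 17 of 25 Procr-leaning cells (68.0%, 46.5 to 85.1) and 1 of 24 Cd48-leaning cells (4.17%, 0.105 to 21.1). Its level was 157 CPM (144 to 172) against 14.5 CPM (10.5 to 19.4), a ratio of 2.78, at chr19:43612325-43615892, plus strand. Npdc1, a neural proliferation and differentiation control gene, had a median of 185 CPM per Procr-leaning cell and 0 CPM per Cd48-leaning cell, and gave 2.60. Ldhb, the heart-type lactate dehydrogenase subunit, was counted in 24 Procr-leaning cells at a median of 249 CPM and in 18 Cd48-leaning cells at a median of 16.7 CPM, and gave 2.63.

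Cd24a, a glycosylphosphatidylinositol-anchored surface protein gene, had the highest ratio of the 12 at 3.19, with a median of 325 CPM per Procr-leaning cell (range 20.7 to 4618) and 50.1 CPM per Cd48-leaning cell (0 to 711). A single Procr-leaning cell held 48.8% of its counts in that group, and the ratio was 2.73 without the highest cell of each group. Anxa1, a calcium-dependent phospholipid-binding protein gene, was more uneven, with 66.5% of its Procr-leaning counts in 1 cell, and its ratio of 3.01 became 1.80 without the highest cells. The remaining higher genes were each present after thinning in a minority of cells. Il4, a cytokine gene of type 2 immunity, was so counted in 9 of 25 Procr-leaning and 2 of 24 Cd48-leaning cells, at 117 CPM (106 to 130) against 5.58 CPM (3.25 to 8.94). Cracr2b, which encodes a regulator of calcium channels, was present in 10 and 1 cells with a ratio of 2.94, and Tcn2, the vitamin B12 carrier transcobalamin, in 10 and 3 cells with a ratio of 2.90. Serpinf1, which encodes pigment epithelium-derived factor, was present in 11 and 4 cells and gave 2.69. Xdh, xanthine dehydrogenase of purine breakdown, was present in 7 and 1 cells and gave 2.59.

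The 12 genes with the lowest ratios were, in order, Nkg7, Sgo1, Runx3, Mfsd2b, Usp40, Gp1bb, Itga2b, F2rl2, Gata1, Rabgap1l, Fyb and Slc14a1. Nkg7, a granule membrane protein gene known from natural killer and T cells, ran from 0 through a median of 36.1 to 169 CPM per Procr-leaning cell and from 0 through 274 to 1625 CPM per Cd48-leaning cell. Its level was 36.5 CPM (30.1 to 43.8) against 644 CPM (616 to 673), a ratio of -3.81; its position is chr7:43437073-43438249, plus strand. The 2 measured NK cell genes had 0 counts in Cd48-leaning cells. T cell genes (5 of 10 measured) had a median per-cell sum of 42.1 CPM in Procr-leaning and 223 CPM in Cd48-leaning cells, and their part in the level of Nkg7 was not tested.

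Runx3 and Gata1 were the haematopoietic transcription factor genes among the 12. Runx3, of the core-binding factor family of haematopoietic regulators, was present after thinning in 0 of 25 Procr-leaning cells (0%, 0 to 13.7) and 13 of 24 Cd48-leaning cells (54.2%, 32.8 to 74.5), at 4.44 CPM (2.43 to 7.45) against 134 CPM (121 to 148), a ratio of -3.32. Gata1, the master regulator of erythroid and megakaryocyte development, was at 9.52 CPM (6.42 to 13.6) against 140 CPM (127 to 154), a ratio of -2.94. Its cofactor gene Zfpm1 (FOG1) gave -2.07, and Tal1, the basic helix-loop-helix factor that works with GATA factors, -1.76. Runx1, essential for the emergence of HSC, gave -1.31, and Cbfb, the shared partner of the RUNX proteins, -1.06. Of 26 haematopoietic transcription factor genes 6 were at least 2-fold lower and 3 at least 2-fold higher, where 8.10% and 10.0% of all genes were. The number higher is near the share over all genes. The median was -0.20, so the list as a whole was not lower by 2-fold. Without the highest cell of each group for each gene, 7 were lower and 2 higher. The 3 higher ones with all cells were Ikzf2, an Ikaros family gene (1.29), Lyl1, a relative of Tal1, at 450 against 196 CPM (1.16), and Spi1, which encodes the myeloid and lymphoid factor PU.1 (1.01).

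Of the other lower genes, Mfsd2b, a sphingosine-1-phosphate exporter gene of red cells and platelets, had a median of 3.22 CPM per Procr-leaning cell and 112 CPM per Cd48-leaning cell, and gave -3.17. Fyb, an adaptor protein gene of T cells and platelets, gave -2.80, with a median of 14.4 CPM per Procr-leaning cell and 257 CPM per Cd48-leaning cell. Slc14a1, a urea transporter gene of red cells, was present after thinning in 4 of 25 Procr-leaning and 20 of 24 Cd48-leaning cells and gave -2.76. Rabgap1l, a gene of a Rab GTPase-activating protein, was counted in all 25 Cd48-leaning cells and gave -2.87, and Usp40, a ubiquitin-specific protease gene, gave -3.16.

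Cell number bore on these genes as well. The named genes were picked for their ratios in the full groups, and the subsets below share cells with these groups. Agreement within the subsets was therefore partly fixed in advance and is no check, also beside the shares over all genes. In the cells numbered 50 or below, 8 of the 12 higher genes were still at least 2-fold higher, where 18.5% of all genes were, with Tcn2 at 3.01 and Nkx2-3 at 2.32, while Ifitm1 was at 0.71 and Ldhb at 0.24. Of the 12 lower genes 3 were still at least 2-fold lower, where 10.2% of all genes were, namely Fyb (-1.82), Slc14a1 (-1.67) and Rabgap1l (-1.52). Runx3 (0.16), Gp1bb (0.25) and Gata1 (0.05) were on the other side of 0, and Nkg7 was at -0.50. With the Cd48-leaning cells restricted to the 17 that had Cd48 counts, all 24 genes were at least 2-fold different in the same direction, where 11.5% of all genes were higher and 8.01% lower. With 26 cells that had Procr counts only against 15 that had Cd48 counts only, 11 of the 12 higher genes (8.44% of all genes) and 8 of the 12 lower genes (7.17%) were. The exceptions were Cd24a (0.83), Gata1 (-0.76), Fyb (-0.70), Slc14a1 (-0.68) and Gp1bb (-0.65).

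**Figure D2:**
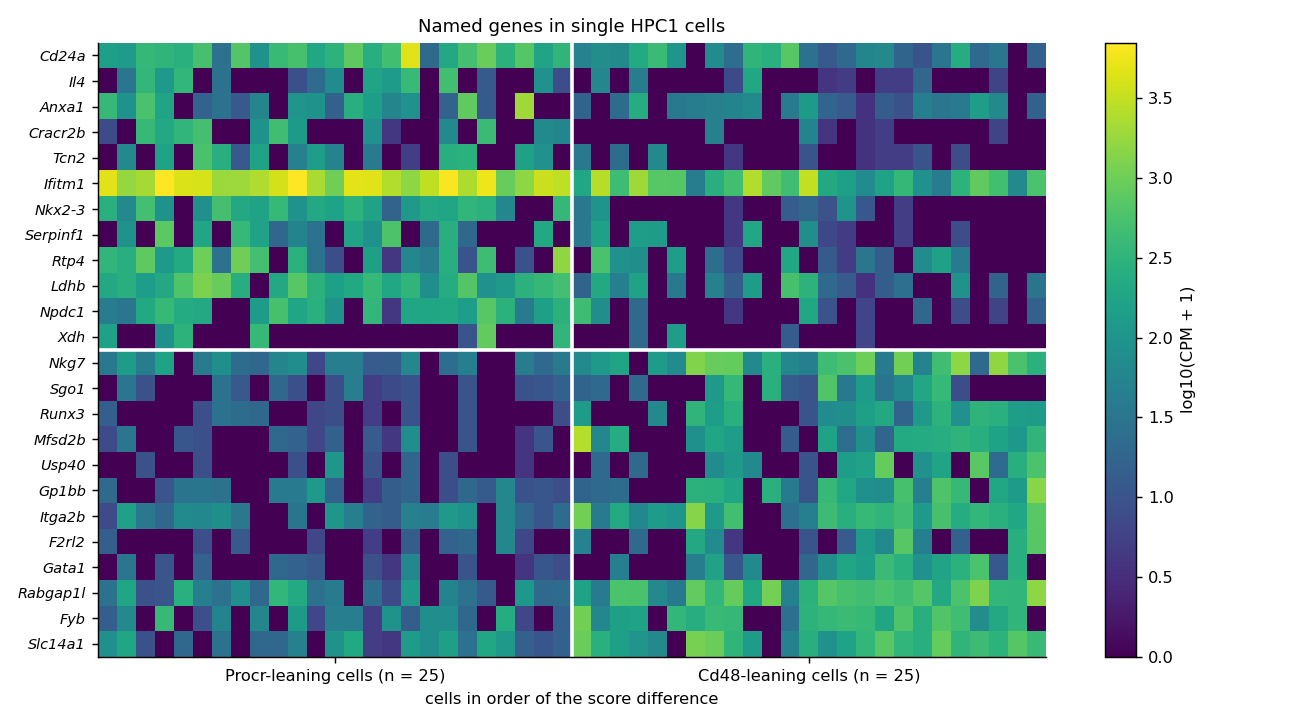
Level of the 24 named genes, as log10(CPM + 1), in each Procr-leaning (left) and Cd48-leaning cell (right), in order of the score difference. The upper 12 genes are brighter on the left and the lower 12 on the right, with dark gaps in both groups, such as Xdh, counted in 7 of 25 Procr-leaning cells.

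Megakaryocyte and platelet genes were lower in Procr-leaning cells. Of 26 measured genes 14 were at least 2-fold lower and 2 at least 2-fold higher, with a median log2 ratio of -1.11. The summed level ran from 1479 through a median of 2217 to 5659 CPM per Procr-leaning cell and from 2212 through 4708 to 20890 CPM per Cd48-leaning cell. The ranges overlapped, and 5 of 25 Procr-leaning and 21 of 25 Cd48-leaning cells lay above the library's median.

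Surface receptors of platelets were among the lowest genes. Itga2b, which encodes the fibrinogen receptor subunit CD41, had a median of 32.4 CPM per Procr-leaning cell (range 0 to 159) and 239 CPM per Cd48-leaning cell (0 to 1421), and gave -2.99; its position is chr11:102453297-102470122, minus strand. Gp1bb and Gp5, of the von Willebrand factor receptor complex, gave -3.04 and -2.29, whereas Gp9 of the same complex gave -0.86. F2rl2, the protease-activated receptor 3 gene, gave -2.98, or -2.14 without its highest cells. Among granule and signalling genes, Pf4, the chemokine platelet factor 4, was at 512 CPM (487 to 537) against 2366 CPM (2312 to 2421), a ratio of -2.19. Plek, the protein kinase C substrate pleckstrin of platelets, gave -2.38, and Rap1b, a small GTPase of integrin activation, -2.31.

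Not all members followed. Mmrn1, which encodes the platelet granule protein multimerin 1, was higher, at 158 CPM (144 to 172) against 52.5 CPM (44.7 to 61.3), a ratio of 1.42. Vwf, von Willebrand factor, which marks platelet-biased HSC, gave -0.33, counted in 19 Procr-leaning and 18 Cd48-leaning cells. In the cells numbered 50 or below, the list's median was -0.07. The 6 Cd48-leaning cells with such numbers had summed levels of 2212 to 3845 CPM and the 19 above 50 had 3305 to 20890 CPM.

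**Figure D3:**
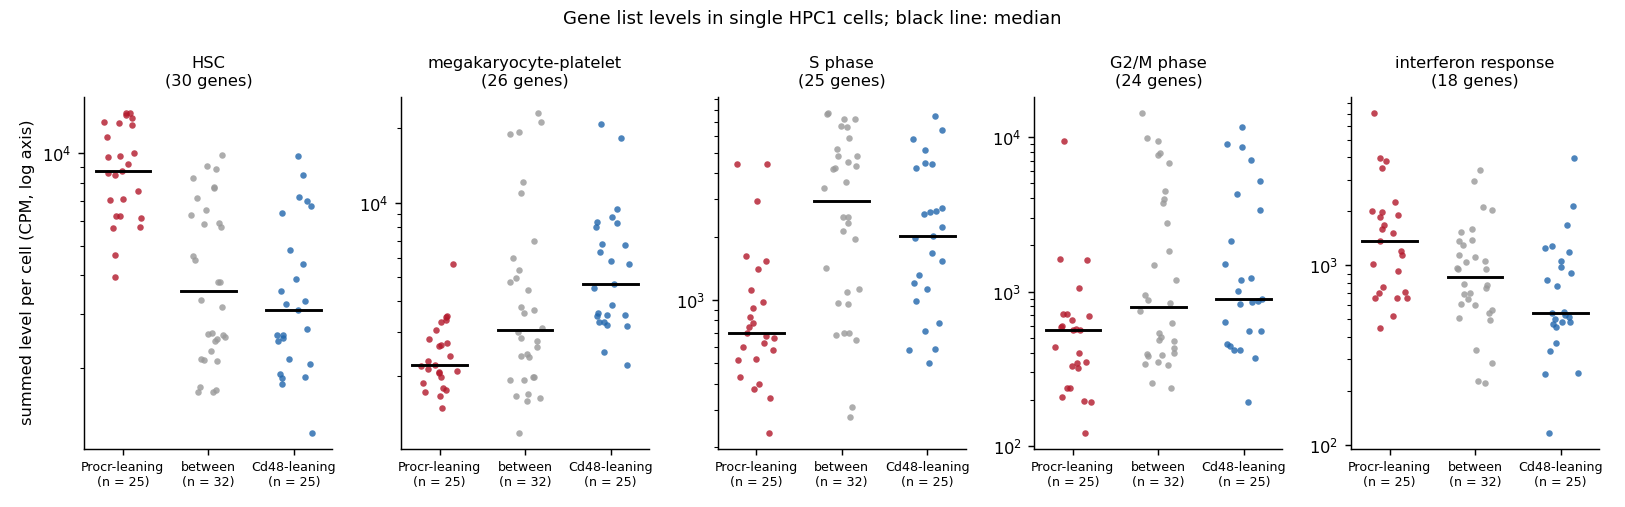
Summed level of 5 gene lists (CPM, log axis) in single HPC1 cells: Procr-leaning (n = 25), between (n = 32) and Cd48-leaning (n = 25), with a black line at the median. Medians are higher in Procr-leaning cells for HSC genes (8736 against 3081 CPM) and interferon response genes (1365 against 541 CPM), and lower for megakaryocyte-platelet genes (2217 against 4708 CPM), S phase genes (695 against 2010 CPM) and G2/M genes (565 against 901 CPM).

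Cell cycle genes were lower in Procr-leaning cells. Of 24 genes of the G2 and M phases, 18 were at least 2-fold lower and 0 at least 2-fold higher, with a median of -1.32. Of 25 genes of the S phase, 12 were at least 2-fold lower and 0 higher, with a median of -0.999. The summed S phase level ran from 235 through a median of 695 to 4419 CPM per Procr-leaning cell and from 504 through 2010 to 7430 CPM per Cd48-leaning cell. The summed G2/M level ran from 122 through 565 to 9388 CPM and from 193 through 901 to 11540 CPM. For S phase genes 4 of 25 Procr-leaning and 16 of 25 Cd48-leaning cells lay above the library's median. The G2/M level differed more in its upper quartile than at its median, with an upper quartile of 695 CPM in Procr-leaning and 3380 CPM in Cd48-leaning cells.

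Promoters of 3 of the lower G2/M genes are shown because many genes of this phase carry the short element TTTGAA, the cell cycle genes homology region through which repressor complexes act in resting cells. Plk1 encodes the mitotic kinase polo-like kinase 1, Ckap2l a spindle protein and Hmmr a spindle-associated receptor for hyaluronan. Each window covers 250 bases before to 50 bases after the RefSeq start (GRCm38.p6), 5′ to 3′ on the gene's strand, with matches to TTTGAA on either strand (TTCAAA on the other) in capitals.
Plk1, plus strand, chr7:122159185-122159484: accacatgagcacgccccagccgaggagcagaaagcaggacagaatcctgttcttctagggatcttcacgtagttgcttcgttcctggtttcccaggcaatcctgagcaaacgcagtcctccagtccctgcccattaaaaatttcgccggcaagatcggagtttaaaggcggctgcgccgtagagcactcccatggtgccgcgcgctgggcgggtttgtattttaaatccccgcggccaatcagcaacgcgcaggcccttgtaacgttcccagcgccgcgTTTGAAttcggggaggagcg
Ckap2l, minus strand, chr2:129297163-129297462: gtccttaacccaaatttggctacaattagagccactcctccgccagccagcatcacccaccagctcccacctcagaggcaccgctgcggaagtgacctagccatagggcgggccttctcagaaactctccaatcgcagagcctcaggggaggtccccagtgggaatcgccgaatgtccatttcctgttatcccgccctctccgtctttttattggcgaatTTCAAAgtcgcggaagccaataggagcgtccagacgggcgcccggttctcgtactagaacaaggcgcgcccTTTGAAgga
Hmmr, minus strand, chr11:40733388-40733687: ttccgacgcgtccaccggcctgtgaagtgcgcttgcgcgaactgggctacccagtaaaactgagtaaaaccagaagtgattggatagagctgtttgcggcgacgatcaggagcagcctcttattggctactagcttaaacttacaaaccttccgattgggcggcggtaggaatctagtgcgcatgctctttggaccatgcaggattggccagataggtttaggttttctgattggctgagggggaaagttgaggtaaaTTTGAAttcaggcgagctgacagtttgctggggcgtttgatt
Of the 24 G2/M genes 21 had a window, and 15 of these (71.4%) held at least 1 match, against 20.2% of the 27025 genes with a window in the table; the window of Ccnb1 held none. The match is a description of the letters.

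Plk1 was at 5.71 CPM (3.39 to 9.03) in Procr-leaning and 80.8 CPM (71.0 to 91.5) in Cd48-leaning cells, a ratio of -2.53, and was present after thinning in 0 of 25 and 10 of 24 cells. Ckap2l gave -2.46, at 18.7 against 148 CPM, and Hmmr -1.80, at 17.8 against 86.7 CPM. Ccnb1, the cyclin B1 that drives entry into mitosis, was at 7.93 CPM (5.13 to 11.7) against 97.9 CPM (87.1 to 110), a ratio of -2.59. Sgo1, the shugoshin that guards the cohesion of sister centromeres, was the second lowest of the named genes at -3.39, at chr17:53674786-53689333, minus strand. Mki67, the proliferation marker Ki-67, gave -0.73, but -2.03 without the highest cells, since 76.8% of its Procr-leaning counts were in 1 cell. That cell was the highest for the G2/M list at 9388 CPM, held 53.6% of the group's G2/M counts, and also held 138900 CPM of haemoglobin transcripts. Without the cells rich in haemoglobin transcripts the median of the G2/M list was -2.11.

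Among S phase genes, Mcm2, a subunit of the replicative helicase, had a median of 9.37 CPM per Procr-leaning cell (range 0 to 175) and 124 CPM per Cd48-leaning cell (0 to 601), and gave -1.93. Tyms, thymidylate synthase, gave -1.26. Upstream of replication, Cdk6, the G1 kinase whose level sets how soon stem cells leave quiescence, was at 56.2 CPM (48.2 to 65.1) against 383 CPM (361 to 406), a ratio of -2.57. It was counted in 23 Procr-leaning cells at a median of 22.6 CPM and in 24 Cd48-leaning cells at a median of 372 CPM. Myc, the growth-promoting transcription factor, gave -1.44. These were the 2 genes of a list of 7 G1 cyclins, kinases and regulators that were at least 2-fold lower, and 0 were higher. Ccnd2, cyclin D2, was at 1020 against 679 CPM (0.58). Ribosome biogenesis genes had a median of -0.72, with 4 of 14 at least 2-fold lower, among them Bop1 (-1.82) and Nop56 (-1.01). Of 18 cell cycle inhibitor and quiescence genes 4 were at least 2-fold higher, including Ndn, the growth suppressor necdin, counted in 19 Procr-leaning and 8 Cd48-leaning cells (2.10), and the median was 0.24.

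The pooled cell cycle ratios depended on the cells with numbers above 50. In the cells numbered 50 or below, the median was 0.84 for S phase and 0.64 for G2/M genes, on the other side of 0 in pooled counts. The per-cell medians of the same cells were lower in Procr-leaning cells for both lists, at 695 against 882 CPM for S phase and 565 against 715 CPM for G2/M genes. In the Procr-leaning cells 1 cell held 30.9% of the S phase and 1 held 53.6% of the G2/M counts. The summed S phase level was 504 to 1316 CPM in the 6 Cd48-leaning cells numbered 50 or below and 578 to 7430 CPM in the 19 above. In the cells between the groups it had a median of 1953 CPM over the 17 numbered 50 or below and 4210 CPM over the 15 above. With 35 cells per group in place of 25 the G2/M median was -0.02, and with 15 it was -2.15.

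Interferon response genes were higher in Procr-leaning cells. Of 18 genes 12 were at least 2-fold higher and 0 lower, with a median of 1.31, or 0.91 without the highest cells. The summed level ran from 450 through a median of 1365 to 7083 CPM per Procr-leaning cell and from 117 through 541 to 3976 CPM per Cd48-leaning cell. Oasl2, an oligoadenylate synthetase-like antiviral gene, was at 162 CPM (148 to 177) against 19.1 CPM (14.5 to 24.6), a ratio of 2.56. Rtp4, a receptor transporter gene induced by interferon, gave 2.63, with a median of 122 CPM per Procr-leaning cell and 6.40 CPM per Cd48-leaning cell. Of the interferon receptor subunits, Ifngr2 gave 1.97 and Ifnar1 1.84, whereas their partners Ifngr1 and Ifnar2 gave 0.97 and -0.48. Downstream, the transcription factors Irf1 and Irf7 gave 1.79 and 1.17. Stat2, a signal transducer of the type I interferon receptor, and Bst2, the virus-tethering protein tetherin, both gave -0.49. Ifit1 and Ifit3, antiviral genes of the tetratricopeptide family, gave 1.67 and 1.81, but 88.7% of the Procr-leaning counts of Ifit3 were in 1 cell, and it gave 0.27 without the highest cells. In the cells numbered 50 or below the median of the list was 0.21, with summed levels of 531 to 3976 CPM in the 6 Cd48-leaning cells.

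Immediate early genes, switched on rapidly by signals or by the handling of cells, had a median of 0.64, with 4 of 12 at least 2-fold higher and 0 lower. Egr1 and Junb, early response transcription factors, gave 1.73 and 1.57, whereas Jun gave -0.48. Per-cell sums ran from 180 through a median of 1615 to 10180 CPM in Procr-leaning cells. In Cd48-leaning cells they ran from 178 through 868 to 5673 CPM, so the ranges shared their lower part. The upper quartiles were 4157 CPM in Procr-leaning and 1834 CPM in Cd48-leaning cells. MHC class II genes had a median of 0.91, with 3 of 7 at least 2-fold higher, but the counts were in few cells: 54.7% of the Procr-leaning and 65.8% of the Cd48-leaning counts of H2-Aa, a chain of the antigen-presenting molecule, were in 1 cell each. In the cells numbered 50 or below the class II median was -0.38.

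Among genes of other lineages, the summed level of the 5 measured T cell genes lay above the library's median in 7 of 25 Procr-leaning and 19 of 25 Cd48-leaning cells, with a median log2 ratio of -0.09 over the list. Of these genes Lat, an adaptor protein gene that platelets also express, gave -1.57. For granulocyte-monocyte progenitor genes 13 and 13 cells lay above that median, and for erythroid genes 12 and 13. Mature neutrophil genes had a pooled median of 3.33, with 8 of 12 at least 2-fold higher, but 91.1% of their Procr-leaning counts came from 2 cells, 1 of which held 112000 CPM of these genes, and the median without the highest cell was 0.02. The per-cell medians of their sum were 1165 CPM in Procr-leaning and 1362 CPM in Cd48-leaning cells, against 59.0 and 53.0 CPM in the groups of the HSC1 library. Erythroid genes had a pooled median of 0.92 and of -0.22 without the highest cell, with 78.9% of the Procr-leaning counts in the haemoglobin-rich cell. Granulocyte-monocyte progenitor genes had a median of 0.00 and lymphoid progenitor genes of 0.05. The summed lymphoid progenitor level had a median of 537 CPM per Procr-leaning cell and 327 CPM per Cd48-leaning cell. For it 15 and 10 cells lay above the library's median. Single members differed. Prtn3, the neutrophil granule proteinase 3, was at 683 CPM (654 to 712) against 146 CPM (133 to 160), a ratio of 2.15, with 17.6% and 17.5% of the counts in the highest cell of each group, whereas Mpo and Elane, of the same granules, gave -0.14 and -0.36. Lsp1, a leukocyte cytoskeletal protein gene, was counted in 23 Procr-leaning cells at a median of 240 CPM and in 18 Cd48-leaning cells at a median of 15.6 CPM, and gave 2.51. No cells were called as doublets or removed, and the part of cells rich in neutrophil or haemoglobin transcripts in other results was not tested beyond leaving them out.

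The same rule in the HSC1 library, whose cells took no part in ranking the named genes, gave an HSC list median close to that of HPC1 and cell cycle medians further below 0. The gene lists were chosen with earlier results of both libraries known, so their values there are no independent check. There 23 of 25 Procr-leaning cells were numbered 50 or below and all 25 Cd48-leaning cells above, so the numbers divided the groups even more. At least 2-fold higher were 11.7% and lower 11.5% of 12018 genes. The HSC list had a median of 1.49, with 18 of 30 at least 2-fold higher and 0 lower, S phase genes of -2.10 with 23 of 25 lower, and G2/M genes of -2.20 with 20 of 24 lower. Of the 12 named higher genes 11 had a ratio above 0 and 9 were at least 2-fold higher, such as Ifitm1, at 4600 against 639 CPM (2.83). Of the 12 named lower genes 11 had a ratio below 0 and 9 were at least 2-fold lower, such as Nkg7, at 35.9 against 588 CPM (-3.70). Gata1 gave -3.29 and Runx3 -2.81 there. The megakaryocyte-platelet list did not share the direction, with a median of 0.13, 7 of 26 at least 2-fold higher and 4 lower; Pf4 was at 109 against 118 CPM (-0.10) and Vwf gave 2.28. Differences between libraries were not tested.

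In the MPP2-containing library, which holds no gate described as CD201+, 15 of the 25 Procr-leaning cells had Procr counts and 17 had Cd48 counts, and the cell numbers were mixed, with 15 Procr-leaning and 17 Cd48-leaning cells numbered 50 or below. The groups differed less there: 4.46% of genes were at least 2-fold higher and 2.53% lower. The HSC list had a median of 0.24 with 3 of 30 at least 2-fold higher, S phase genes of -0.01 and G2/M genes of 0.15. Interferon response genes had a median of 1.04, with 10 of 18 at least 2-fold higher and 0 lower, including Oasl2 (1.11) and Rtp4 (1.45). Of the named genes, 10 of 12 higher and 9 of 12 lower ones had the same sign, and 3 and 1 of them were at least 2-fold different, the last being Nkg7 at 270 against 613 CPM (-1.15).

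**Figure D4:**
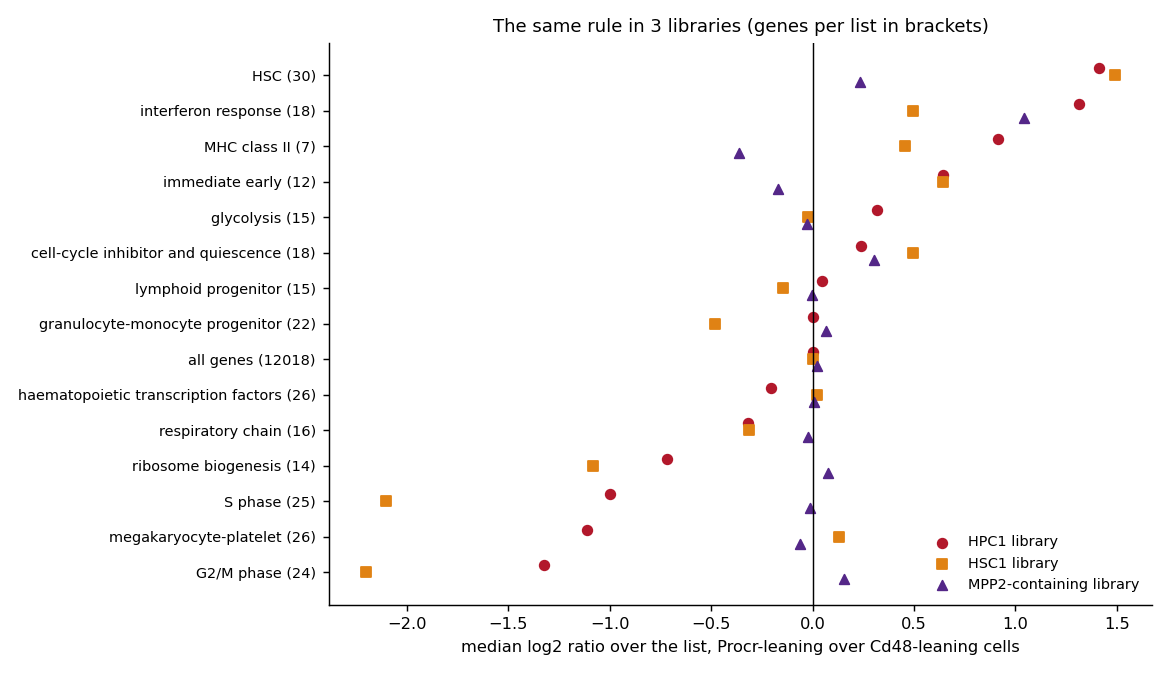
Median log2 ratio of Procr-leaning over Cd48-leaning cells for 14 gene lists and for all genes, by the same rule in the HPC1 (circles), HSC1 (squares) and MPP2-containing (triangles) libraries, with the genes per list in brackets. HSC genes lie at 1.41, 1.49 and 0.24, G2/M genes at -1.32, -2.20 and 0.15, and interferon response genes at 1.31, 0.50 and 1.04.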

How the data were processed

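Single cells of 6 sorted libraries were sequenced from transcript 3' ends, and the submitters' processing notes name TopHat, HTSeq and mm10. The authors deposited scores in 3 tables, of which the joint table of 4 libraries (322 cells) holds the cells compared here. All 3 tables (497 cells) were used together to recover counts. Over these cells each of the 9901 genes without a capped value has mean 0 and SD 1. Values are capped at 10, and the normalization is not given in the sources used here. From these scores the counts were recovered, as a log of counts per 10000 with 3 per-cell covariates regressed out, for 12020 of 13278 genes; all 2001125 values up to 50 were whole within 0.01. The covariates and totals are estimates from the tables themselves. On simulated counts for the HPC1 groups, 11734 of 11935 genes were recovered, with a median log2 ratio of 0.75 drawn and 0.75 recovered for 100 genes changed 2-fold. Cells were ranked by the deposited scores, and the 28 gene lists, like the groups, were chosen with earlier results of these data known. No test was run, since the groups come from 1 library and cells are not replicates. Genes with a ratio of at least 2-fold are counted, and genes were named by the rule given with them, which leaves out predicted, mitochondrial and ribosomal protein genes. A few list members are not reported here by name. Whether counting used strand, and how reads shared by related genes (the Ifitm, Ly6, MHC families) were assigned, is not given. A cell's total is the estimated total of the authors' normalization, of which the recovered genes held a median of 60.5% in Procr-leaning and 63.9% in Cd48-leaning cells. Python 3.11.15, numpy 2.4.6, pandas 2.3.3 and scipy 1.17.1 were used. There were 18 alternatives, of which 3 were added after the data were seen.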

Additional observations from a re-analysis of the deposited data

Results flagged for a closer look

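Several values in the HSC1 or the MPP2-containing library had the opposite sign to those in the HPC1 library under the same rule; these differences were not tested, and they are given as values. In the HSC1 library the median log2 ratio was 0.13 for megakaryocyte-platelet genes, against -1.11 in HPC1, and -0.21 for erythroid genes, against 0.92. In HPC1, 1 cell held 78.9% of the erythroid counts of the Procr-leaning cells. Without each gene's highest cell the erythroid median was -0.22 in HPC1 and -0.0047 in HSC1, so the opposite sign was not kept. Single genes of opposite sign in the HSC1 library were Cd52, a lymphocyte surface glycoprotein gene (-2.68, against 3.19 with 98.0% of the Procr-leaning counts in 1 cell) and Sox4, a lymphoid and progenitor transcription factor (-2.04, against 1.51).

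In the MPP2-containing library the medians were 0.15 for G2/M genes (-1.32 in HPC1), 0.074 for ribosome biogenesis genes (-0.72), -0.17 for immediate early genes (0.64) and -0.36 for MHC class II genes (0.91). Single genes of opposite sign there were Rab27b, a GTPase of platelet granule release (1.66, against -1.19), and Ccne2, cyclin E2 (1.43, against -1.82).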

How the results depend on the processing

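No paired analysis was possible because both groups come from the same 1 library, with no replicates to pair. Restricting both groups to cells numbered 50 or below (chosen after seeing the data) moved many results: 2218 genes were at least 2-fold higher and 1230 lower, and medians were 0.29 for HSC, -0.073 for megakaryocyte-platelet, 0.84 for S phase and 0.64 for G2/M genes (whose per-cell medians were 695 against 882 and 565 against 715 CPM, lower in Procr-leaning cells), 0.24 for ribosome biogenesis and -0.38 for MHC class II genes, with Runx3 at 0.16, Gp1bb at 0.25 and Gata1 at 0.053. The cause was not tested. Genes at least 2-fold higher (1205) numbered 2572 with 1 CPM added, 169 with 50 CPM added and 425 when counted in at least 25% of cells; those lower (973) numbered 2089, 154 and 514, and 1520 with 15 and 434 with 35 cells per group. The HSC median was 0.68 with 50 CPM added, and the lymphoid progenitor median 0.85 with the 25% filter. The S phase median was -2.10 with 15 cells per group. The G2/M median was -2.15 with 15 and -0.023 with 35 cells, -0.73 without the deepest 10% of cells, -2.11 without haemoglobin-rich cells, -2.32 without these and neutrophil-rich cells, and -0.53 for 26 cells with Procr counts only against 15 with Cd48 counts only. The erythroid median was -0.27 with 15 cells, -0.22 without each gene's highest cell, -0.22 without haemoglobin-rich cells, -0.27 for Procr only against Cd48 only, -0.19 without both kinds of rich cell and -0.066 in the deposited scores. The MHC class II median was -0.14 after thinning. Over the 17 alternatives on the count scale the HSC median ran from 0.29 to 1.78 and the interferon response median from 0.21 to 1.68. The 24 named genes, run in 16 of these, kept their direction except for the 3 above. Ranked by recovered counts, 24 Procr-leaning and 16 Cd48-leaning cells were shared with the groups as reported. The 3 deepest cells held 29.3% of Procr-leaning and 34.1% of Cd48-leaning counts, which limits how far pooled levels stand for single cells.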

Other observations

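Receptor, adhesion and metabolic genes were described for the same groups. Of all 12018 genes 10.0% were at least 2-fold higher and 8.10% at least 2-fold lower. Of 22 cytokine receptor genes 5 were at least 2-fold higher in Procr-leaning cells and 1 was lower, with a median of 0.22. Csf3r, the granulocyte colony-stimulating factor receptor, gave 1.61, counted in 9 Procr-leaning and 6 Cd48-leaning cells, and Epor, the erythropoietin receptor, -1.12, counted in 6 and 15 cells. Of 21 adhesion and homing genes 7 were at least 2-fold higher and 2 lower, with a median of 0.08. Without each gene's highest cell 5 were higher and 4 lower, where 6.94% and 8.91% of all genes were. Their summed level had a median of 1220 CPM per Procr-leaning cell and 1438 CPM per Cd48-leaning cell. Among single genes, Jam2, a junctional adhesion molecule, was at 80.9 CPM (71.3 to 91.5) against 12.2 CPM (8.55 to 16.8). It had a ratio of 2.04, and gave 2.37 in the HSC1 library.

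Respiratory chain genes had a median of -0.32, with per-cell sums from 4162 through a median of 5893 to 8172 CPM in Procr-leaning and from 2269 through 7306 to 10620 CPM in Cd48-leaning cells. Of 16 measured genes 2 were at least 2-fold lower and 0 higher, and the number lower is near the share over all genes. Cox5a, a cytochrome c oxidase subunit, gave -1.11 and the electron carrier Cycs -1.39. In the cells numbered 50 or below the median of the list was 0.16. Glycolysis genes had a median of 0.32, with 1 of 15 at least 2-fold higher and 1 lower. Genes of the coagulation and protein C pathway, in which CD201 acts, had a median of 0.18, with 1 of 8 at least 2-fold higher and 2 lower. For glycolysis and for coagulation and protein C genes, the 1 higher member is near the share over all genes.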
